A study of Drosophila melanogaster with 6 samples.

Results

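Insensitive (Insv) is a nuclear protein of Drosophila with a BEN domain, a fold that contacts DNA. It is known as a corepressor in Notch signalling, where it acts with the DNA-binding protein Su(H) during the development of sensory organs. BEN domain proteins are found at gene promoters and at insulators, and sites of such proteins can lie close together or far from any other site. The peaks described here are the Insv sites that stood alone in Kc167 cells, a female line derived from late embryos and labelled with the genotype se/e. They were selected on the peak positions: a peak on the arms X, 2L, 2R, 3L, 3R or 4 was taken as isolated where no other peak of the same arm lay within 5000 bp of either edge. By this rule 902 of 12693 main-arm peaks were isolated, which is 7.11% (exact binomial 95% interval 6.67 to 7.57), out of 13016 peaks in the whole list. The other 11791 main-arm peaks, each with a neighbour within 5000 bp, served as the comparison.

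The list came from chromatin immunoprecipitation and sequencing (ChIP-seq) with 3 Insv ChIP libraries and 3 input libraries, all from Kc167 cells without any other treatment. The antibody was a rabbit polyclonal serum against Insv that had been pre-adsorbed with young embryos, per the labels. The file holds a start, an end and a score per peak, placed on FlyBase release 5, and no value of a single library. The score is the authors' own value from MACS, its scale is not stated, and below it serves to order and describe these peaks and nothing more. Replicate error and depth are unknown, so intervals cover counting error over peaks only. Width and score come from the same peak calling as the positions that chose the members. They are therefore given as descriptions, with no test. No peak is assigned to a gene, and no sequence is shown, since a genome of release 5 was not used here.

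Isolated peaks ranged from sites just past the threshold to single peaks in the middle of very long empty stretches. The nearest other peak lay at a median distance of 12152.5 bp, with quartiles of 7187 and 25742 bp. On the far side the median distance was 41062 bp, with quartiles of 19464.5 and 82062 bp, among the 895 isolated peaks that had a neighbour on both sides. The remaining 7 were the first or the last peak of an arm. For 528 isolated peaks (58.5%) the nearest peak was over 10000 bp away, for 93 (10.3%, 8.40 to 12.5) over 50000 bp and for 25 (2.77%) over 100000 bp. Among the other peaks the nearest one lay at a median of 287 bp, a value that the rule holds below the threshold by definition.

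**Figure D1:**
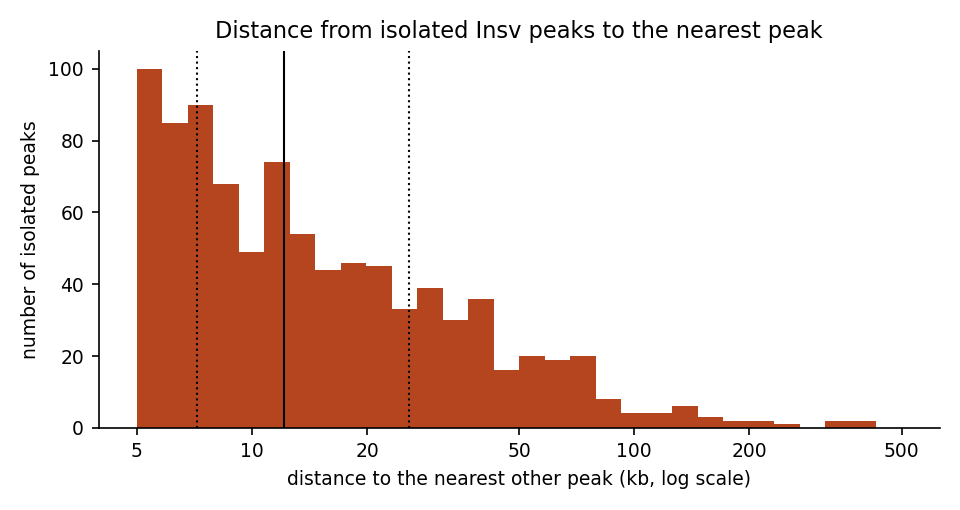
Number of isolated Insv peaks (vertical axis) by the distance in kb to the nearest other peak on the arm (horizontal axis, log scale), for the 902 isolated peaks. The solid line marks the median of 12152.5 bp and the dotted lines the quartiles of 7187 and 25742 bp, with a tail that reaches 413037 bp.

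The 5 most remote isolated peaks were all narrower than the main-arm median of 520 bp. The one with the largest distance closed arm 2L, from 22941485 to 22941795, and had its only neighbour 413037 bp away. It was 311 bp wide and scored 25.56, 2.17 times the median score of the other peaks of like width. The second closed X, from 22257048 to 22257308, scored 10.41 and had its neighbour 370888 bp away. The third lay inside 2L, from 9176063 to 9176519, with 350442 bp free on one side and 520443 bp on the other. This peak of 457 bp had a score of 41.41, the highest of the 5. The fourth was on 3L from 10318283 to 10318541 (336629 bp to the nearest peak, score 13.72), and the fifth on 2R from 937991 to 938260 (254880 bp, score 13.22). Remote peaks thus included both weak and fairly strong ones.

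Isolated peaks were narrower than the others and had about the same scores. Their median width was 420 bp (95% interval 397 to 440; quartiles 287 and 664 bp), against 533 bp (523 to 545; quartiles 315 and 988.5 bp) for the other main-arm peaks. A share of 33.9% of isolated peaks (30.8 to 37.1) was wider than the median of the others. Widths above 1000 bp were seen in 103 isolated peaks (11.4%), against 2905 other peaks (24.6%), and widths above 2000 bp in 12 (1.33%), against 861 (7.30%). The median score was 16.05 (15.26 to 16.86; quartiles 11.1 and 26.2) for isolated peaks and 15.69 (15.52 to 15.78; quartiles 11.3 and 24.1) for the others. These score intervals overlapped. The share of isolated peaks above the median score of the others was 51.7% (48.3 to 55.0). This small difference in score changed its sign with the definition of a peak or of isolation. The share was 46.0% against 49.7% of the other peaks with a distance of 2 kb, 48.1% against 49.4% among the strongest 50% of peaks, and 42.9% against 49.4% with peaks within 1 kb merged.

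The upper end of the score range held more isolated peaks than the middle. Scores above 50 were given to 80 isolated peaks (8.87%, 7.10 to 10.9), against 657 of the others (5.57%, 5.16 to 6.00). Scores above 100 were given to 18 (2.00%, 1.19 to 3.14), against 109 (0.924%, 0.760 to 1.11), and scores above 200 to 3, against 14. With the main-arm peaks sorted by score into 10 classes of about equal size, isolated peaks made up 8.34% of the lowest class (6.92 to 9.94), 4.77% of class 5 (3.66 to 6.10) and 10.7% of the highest (9.0 to 12.5). The order between these was not smooth, since class 6 held 8.69%. By width the picture was simpler. Isolated peaks made up 8.02 to 11.01% of each of the 5 narrower classes, between 4.57 and 6.50% of classes 6 to 9, and 1.73% (1.09 to 2.61) of the widest.

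**Figure D2:**
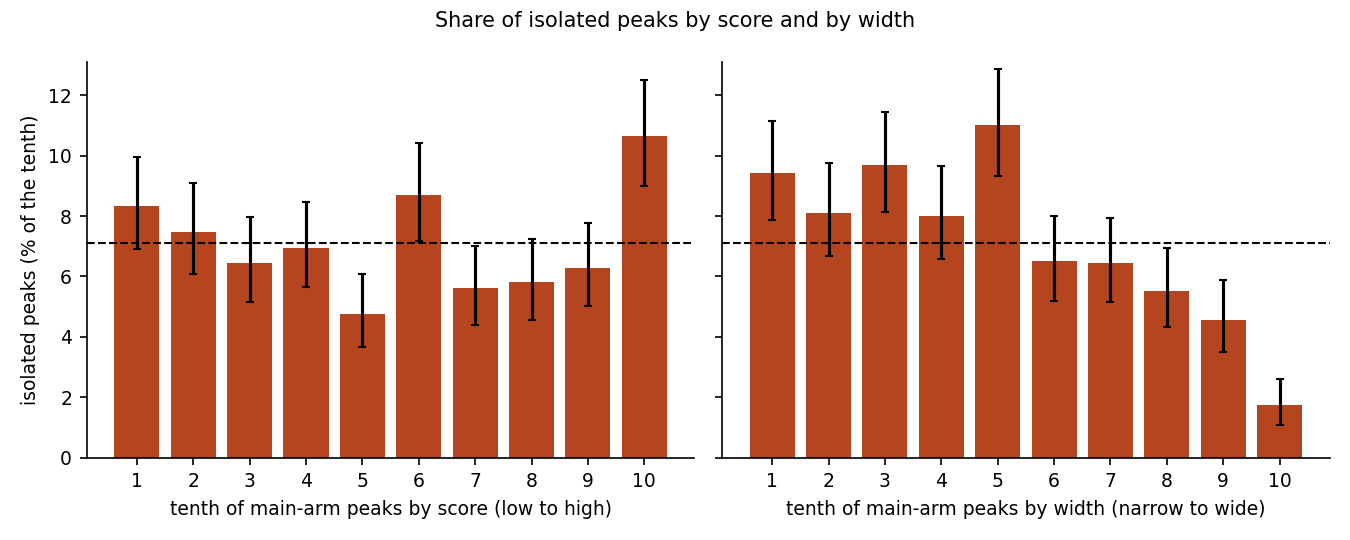
Share of isolated peaks (vertical axis, percent, from 0) in each of 10 equal classes of the main-arm peaks by the authors' score (left) and by width (right). Error bars are exact binomial 95% intervals and the dashed line is the share over all main-arm peaks, 7.11%; the highest class by score stands at 10.7% and the widest class at 1.73%.

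At like width, isolated peaks scored higher. In 10 width classes of about equal size over all main-arm peaks, 562 of the 902 isolated peaks (62.3%, 59.1 to 65.5) scored above the median of the other peaks of their class, against 49.3% of the other peaks themselves. The others fall just short of 50% because tied scores are not above the median. The difference was small at narrow widths. In the 3 narrowest classes, from 201 to 341 bp, 54.6% of isolated peaks (49.2 to 59.9) were above that median, an interval that includes the 49.2% of the others. From 342 to 1679 bp the share was 67.7% of 532 isolated peaks (63.5 to 71.6), against 49.3% of the others. At 521 to 654 bp the median score was 24.91 for 82 isolated peaks (95% interval 20.28 to 33.83), against 16.05 for 1179 others (15.61 to 16.47). At 835 to 1131 bp it was 35.48 for 70 isolated peaks (27.2 to 41.8), against 21.47 for 1196 others (20.87 to 22.07). The ratios of these medians, 1.55 and 1.65, were the largest of the 10 classes. In the remaining classes from 342 to 1679 bp the ratio lay between 1.22 and 1.36. At 240 to 286 bp it was 0.993. Among the widest peaks, from 1681 bp up, the 22 isolated ones had a median of 37.73, against 37.15 for 1248 others.

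**Figure D3:**
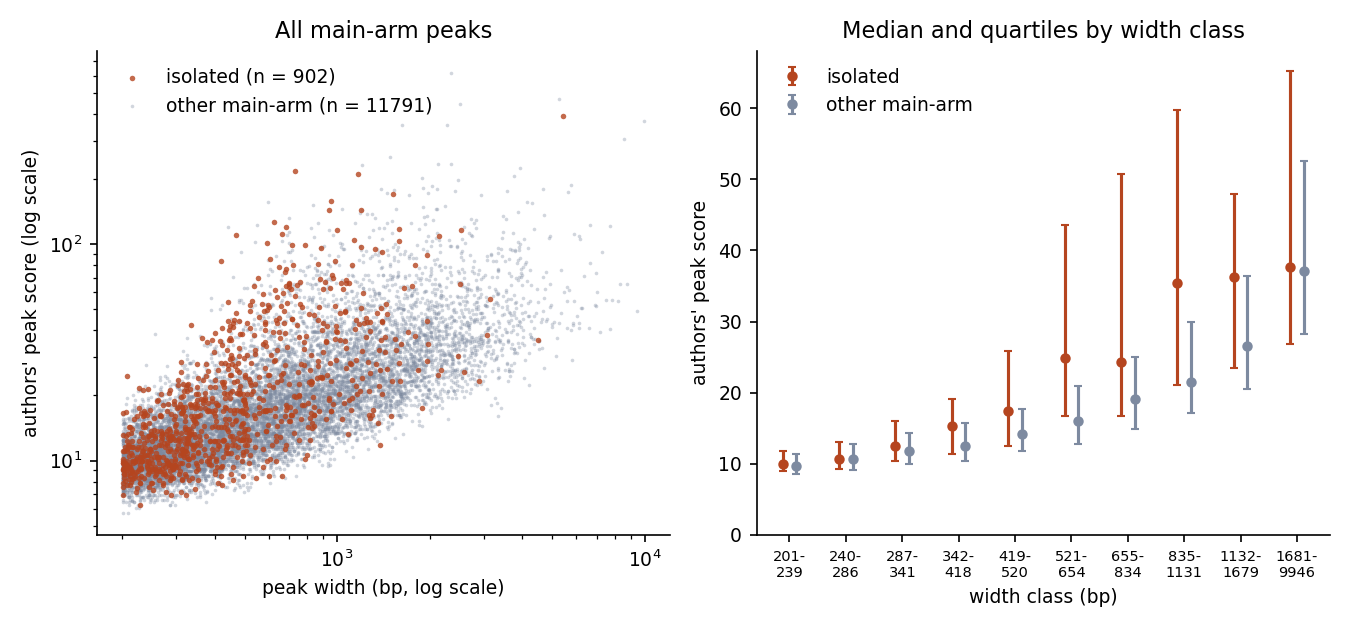
Left, the authors' peak score (vertical axis, log scale) against peak width in bp (horizontal axis, log scale) for each of the 902 isolated and 11791 other main-arm peaks. Right, the median score (points) and its quartiles (bars) in 10 width classes in bp. The ratio of isolated to other medians was largest at 521 to 654 bp (24.91 against 16.05) and at 835 to 1131 bp (35.48 against 21.47). The medians were nearly the same in the narrowest classes and in the widest.

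The excess at like width was larger in the upper tail. A score above the 90th percentile of the other peaks of their class was seen in 237 isolated peaks (26.3%, 23.4 to 29.3), against 9.94% of the others. This share was largest at 521 to 654 bp, with 45.1% of isolated peaks, against 10.0% of the others. In the remaining width classes it lay between 13.6 and 37.8% of isolated peaks. Read the other way, at like score the isolated peaks were narrower from the middle of the score range upward. In the lowest of the 10 score classes the median widths were 256 and 255 bp for isolated and other peaks. In class 7 they were 447 bp for isolated peaks and 749 bp for the others. In the highest class they were 799.5 bp for isolated peaks and 1682 bp for the others, which is 2.10 times as wide. Per kb of width the median score was 40.0 (38.7 to 42.0) for isolated peaks and 30.5 (30.2 to 30.8) for the others. This last value is not taken at like width. Among the others, score rose less than width, with medians of 9.76 at 201 to 239 bp and 37.15 from 1681 bp up. Isolated peaks were narrower, so the difference per kb also holds their difference in width.

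Peaks that were narrow and strong at once were rare in both sets. Widths under the main-arm median of 520 bp together with scores above 50 occurred in 3 isolated peaks (0.333%, 0.0686 to 0.969), against 12 of the other peaks (0.102%, 0.0526 to 0.178), and these intervals overlapped. The 3 isolated ones, picked out after their values were seen, lay on 3R from 15394521 to 15394990 (470 bp, score 109.98), on 2L from 20148276 to 20148695 (420 bp, score 83.18) and on 3L from 14267069 to 14267510 (442 bp, score 53.84). Each had at least 16349 bp to its nearest peak, and the one on 3L had 135199 bp.

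The 10 isolated peaks with the highest scores lay on X (5), 2R (3) and 2L (2). They had a median width of 1062.5 bp and ran from 621 to 5407 bp. The 10 strongest of the other peaks had a median width of 2349.5 bp and ran from 1484 to 9946 bp. The strongest isolated peak, on X from 17716360 to 17721766, was also the widest, at 5407 bp. It scored 391.49, the fourth highest score on the main arms, with 14506 bp to its nearest peak and 32324 bp on the other side. The second, on 2L from 13059958 to 13060688, was only 731 bp wide and scored 217.4. That was the highest score of the 1271 main-arm peaks of its width class and 11.4 times the median of the others in it. It lay just inside the threshold, 5293 bp from its nearest peak, in a 1 Mb bin of 203 peaks.

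The third strongest isolated peak, on 2L from 14409277 to 14410443, stood in a sparser bin of 42 peaks. It was 1167 bp wide and scored 210.41. The fourth, which spanned 1525 bp of X from 13277300 to 13278824, scored 170.71. The strongest on 2R ran from 19554107 to 19555064 (958 bp, score 158.51) and led the 1266 peaks of its width class. A second peak of the 10, on 2R from 19467609 to 19468807, lay close to it along the arm and scored 143.52. The same score was given to a peak on X from 19246967 to 19247910. The last 3 of the 10 lay on X from 9587730 to 9588350 (621 bp, score 126.08), on 2R from 158052 to 158732 (681 bp, score 119.72) and on X from 8385328 to 8386921 (1594 bp, score 117.36). The peak on 2R at 158052 lay in the bin next to the centromere, which held 10 peaks in all, 5 of them isolated.

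On the remaining arms the strongest isolated peaks were weaker. The strongest of 3L, from 12392013 to 12394543, scored 116.79 over 2531 bp. The strongest of 3R, from 13769391 to 13770052, scored 111.11 over 662 bp, with 5067 bp to its nearest peak. Chromosome 4 had its strongest isolated peak at 577957 to 578821, with a score of 44.56.

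Wide isolated peaks were not always strong. Behind the peak on X, the widest were 3 on 3R and 1 on 3L. The peak on 3R from 20541394 to 20545883 was 4490 bp wide and scored 36.04, 0.97 times the median of the other peaks of its width class. Those on 3R from 23051509 to 23054644 (3136 bp) and from 18461762 to 18464828 (3067 bp) scored 56.03 and 37.92. The peak on 3L from 22732734 to 22735617 (2884 bp) scored 23.32, below the median of its class. At the other end, the lowest score of an isolated peak was 6.24, and 98 isolated peaks (10.9%) scored below 9.33, the 10th percentile of the main-arm peaks.

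Among the isolated peaks, score at like width went with distance. The share above the other peaks' median of their width class was 57.6% (44.8 to 69.7) for the 66 peaks with the nearest peak at 5 to 5.5 kb and 55.5% (49.8 to 61.2) for the 308 at 5.5 to 10 kb. It was 60.5% (54.0 to 66.8) for the 238 at 10 to 20 kb, 68.5% (61.5 to 74.9) for the 197 at 20 to 50 kb and 79.6% (69.9 to 87.2) for the 93 at 50 kb or more. The intervals of the first 2 classes overlapped widely, and that of the last class lay above those of the 3 nearest. Median scores varied little over these classes, between 14.9 and 16.9, while the median width was 459.5 bp in the nearest class and 350 bp (318 to 447) in the most remote. Beside the threshold, the 66 isolated peaks within 500 bp above it had a median width of 459.5 bp (370 to 590) and a median score of 15.4 (12.49 to 19.39). The 77 other peaks within 500 bp below it had a median width of 509 bp (455 to 629) and a median score of 13.64 (12.49 to 18.25). Of these 77, 46.8% (35.3 to 58.5) lay above the like-width median. All 3 pairs of intervals overlapped. With 66 and 77 peaks they are too wide to tell whether there is a step at the threshold, which was not tested.

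Isolated peaks scored higher at like width than peaks of each class of group size, close to the stronger peak of a pair, and lower than the strongest peak of larger groups. Peaks were joined into groups where facing edges lay within 5000 bp, and the isolated peaks are the groups of 1, which made up 34.6% of the 2606 groups. In the 412 groups of 2 peaks, the median width was 448 bp (423 to 472) and the median score 13.97 (13.22 to 14.74), against 420 bp and 16.05 for isolated peaks. The share above the like-width median was 62.3% for isolated peaks, 48.1% (44.6 to 51.5) in groups of 2, 45.9% (43.8 to 47.9) in groups of 6 to 9 and 53.9% (52.0 to 55.8) in groups of 20 or more. Scores above 50 were given to 8.87% of isolated peaks, 6.19% (4.64 to 8.06) of peaks in groups of 2 and 6.49% (5.59 to 7.48) of those in groups of 20 or more.

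With 1 peak taken per group, the order changed. The stronger peak of each group of 2 was 582 bp wide in the median and scored 19.11 (17.69 to 20.67), and 63.1% (58.2 to 67.8) lay above the like-width median, a share whose interval overlaps that of isolated peaks. The weaker peak had a median score of 11.09 and a median width of 340 bp, and 33.0% (28.5 to 37.8) lay above. For the strongest peak of larger groups the share above was 71.7% (67.9 to 75.3) in groups of 3 to 5, 76.2% in groups of 6 to 9, 86.3% in groups of 10 to 19 and 94.8% (88.3 to 98.3) in groups of 20 or more, each above the 62.3% of isolated peaks. The median score of the strongest peak in groups of 20 or more was 60.93 (53.08 to 70.48). Picking the strongest of several raises the value by itself, so these shares and medians grow with group size by construction in part.

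**Figure D4:**
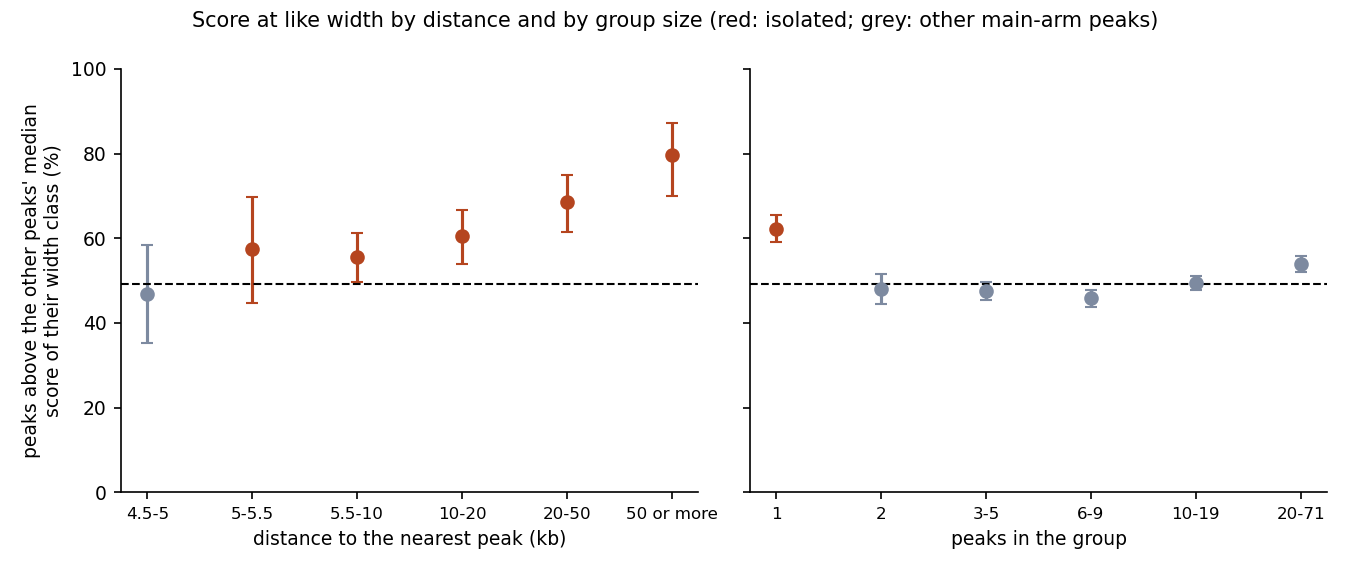
Percent of peaks (vertical axis, 0 to 100) that scored above the median of the other main-arm peaks of their width class, by distance to the nearest peak in kb (left) and by the number of peaks in the group (right), with exact binomial 95% intervals. Red points are isolated peaks and grey points other main-arm peaks, and the dashed line is the value over all the others, 49.3%; the isolated peaks stand at 55.5 to 79.6% by distance and at 62.3% as groups of 1.

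Among the 5 large arms the density of isolated peaks varied less than that of the others. On X, 2L, 2R, 3L and 3R they numbered 151, 176, 162, 203 and 201. Per Mb of the span between the first and the last peak, their density lay between 6.79 on X and 8.34 on 3L, while that of the other peaks lay between 74.6 on 3L and 129 on 2R. The arms with the fewest other peaks per Mb had the largest isolated share, 10.1% on 3L (8.79 to 11.5) and 8.61% on 2L (7.43 to 9.91), against 5.73% on 2R (4.90 to 6.65). Arms dense in other peaks leave less room for an isolated peak, which bounds these densities and shares. Outside groups of 2 or more and the 5000 bp beside them, isolated peaks were densest of these arms on 2R, at 12.5 per Mb. The values were 9.83 on X, 10.2 on 2L, 10.9 on 3L and 10.6 on 3R. On each of these 5 arms the median width of isolated peaks (379 to 456 bp) was below that of the others (479 to 574 bp). The share above the like-width median was 58.6 to 67.2% for isolated peaks on these arms and 47.2 to 55.2% for the others. On 2L, where the others stood highest, the values were 62.5% (54.9 to 69.7) for isolated peaks and 55.2% (52.9 to 57.4) for the others, and the intervals overlapped. They also overlapped slightly on 3L, with 58.6% (51.5 to 65.5) for isolated peaks and 49.7% (47.4 to 52.1) for the others. On X, 2R and 3R they did not overlap. These intervals treat each peak as independent, although the other peaks lie in groups, and no test was made.

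Chromosome 4, which is largely heterochromatic, had 9 isolated peaks among 19, or 47.4% (24.4 to 71.1). Their scores ran from 7.13 to 44.56 around a median of 15.28, and their widths from 221 to 865 bp. The strongest 3 scored 44.56, 43.79 and 31.82, each at least 2.08 times the median of the other peaks of like width.

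Counts in complete 1 Mb bins varied in both sets. The 116 bins held 7.59 ± 3.13 isolated peaks (SD over bins), from 1 to 18, and 99.8 ± 55.9 other peaks, from 0 to 233. The SD was 41.2% of the mean for isolated peaks and 56.0% of the mean for the others. These 2 percentages are not directly comparable, since counting error is a larger part of a small mean. The ratio of variance to mean was 1.29 for isolated peaks and 31.3 for the others. At equal relative unevenness this ratio rises with the mean, so it is not directly comparable either. The rule also splits the 2 sets by the same positions, so no conclusion on their evenness is drawn. With the bins sorted into 4 classes by their total number of peaks, the sparsest class (1 to 62 peaks) held 7.14 ± 3.50 isolated peaks per bin and the densest (142 to 239 peaks) 6.75 ± 2.56. The 2 classes between them held 7.13 ± 3.05 and 9.31 ± 2.78. The other peaks averaged 30.2, 80.1, 118 and 174 per bin in the same order, so the isolated share was 19.1% (16.8 to 21.6) in the sparsest class and 3.73% (3.22 to 4.29) in the densest. The rule itself bounds these counts, since a dense bin has less room for an isolated peak. Per Mb outside groups of 2 or more and the 5000 bp beside them, isolated peaks numbered 8.26, 9.58, 14.4 and 12.8 from the sparsest to the densest class.

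**Figure D5:**
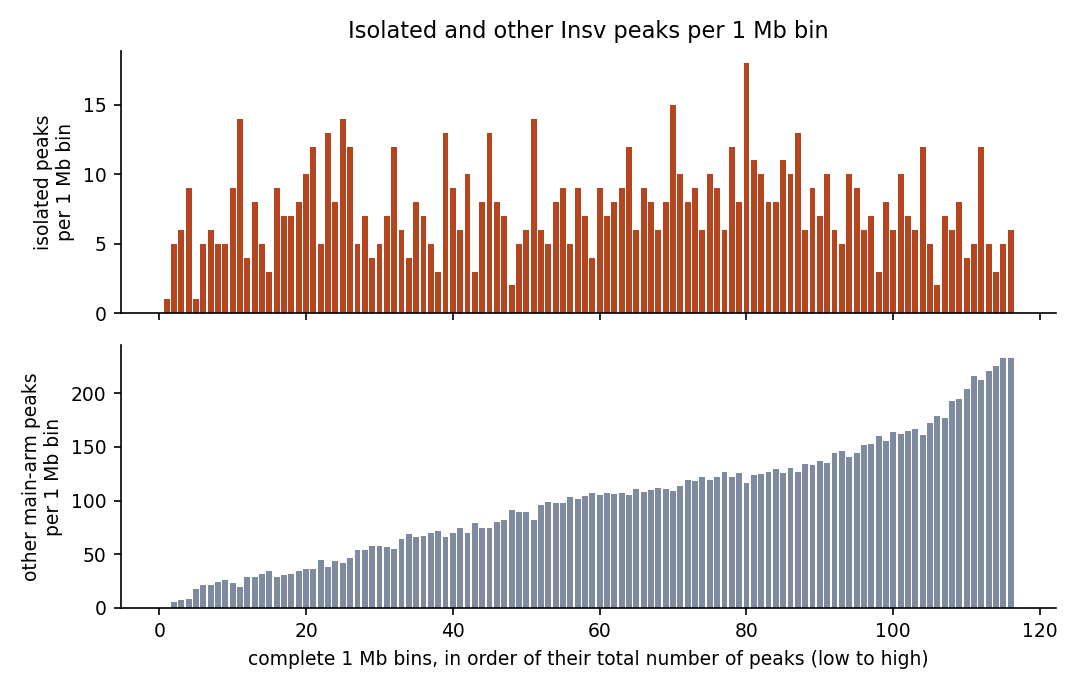
Number of isolated peaks (top) and of other main-arm peaks (bottom) in each of the 116 complete 1 Mb bins, with the bins ordered from the fewest to the most peaks in all. The isolated peaks stay between 1 and 18 per bin along the whole order, while the others run from 0 to 233.

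In all 4 classes of bins the isolated peaks' share above the like-width median was higher than that of the others. In the sparsest it was 61.4% (54.4 to 68.0) for isolated peaks and 43.7% (40.3 to 47.0) for the others. In the densest it was 58.2% (50.8 to 65.3) for isolated peaks and 50.5% (49.1 to 51.9) for the others, where the intervals overlap slightly.

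The bin with the most isolated peaks was on X from 8 to 9 Mb, with 18 of 134. It was followed by 2L from 20 to 21 Mb with 15 of 124 and by 3 bins with 14. Among these, 2L from 3 to 4 Mb had 14 isolated peaks of only 33. The fewest, 1 each, were in 2L from 17 to 18 Mb, of 19 peaks, and in the sparse bin of 3L from 23 to 24 Mb, whose single peak was isolated. Dense bins could also be nearly free of them, as X from 6 to 7 Mb with 2 of 181.

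By distance from the centromere, isolated peaks were about equally frequent in each of 5 equal zones of the span of X, 2L, 2R, 3L and 3R together. The zone next to the centromere held 20.4% of them (17.8 to 23.2) and 20.2% of the others, and the remaining zones 18.8 to 21.1% of isolated peaks and 18.6 to 22.1% of the others. Single arms departed from this where the other peaks were uneven. On 3L the zone at the telomere held 20.7% of isolated peaks (15.3 to 26.9) and 43.7% of the others, and the isolated share there was 5.03%, compared with 23.0% (16.5 to 30.6) in the middle zone. On 2L zone 4 counted from the centromere held 24.4% of isolated peaks (18.3 to 31.5) and 9.79% of the others.

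In the order of groups along the arms, isolated peaks made up 34.6% of the 2606 groups (32.8 to 36.5). Of the 895 isolated peaks with a neighbour on both sides, 143 (16.0%, 13.6 to 18.5) had isolated peaks on both, 414 (46.3%) on 1 and 338 (37.8%) on none. The 34.6% refers to 1 group at a time. It is not the reference for both sides at once, which was not worked out. The 902 peaks fell into 551 runs without a group between them, of which 343 were single peaks and 208 held 2 or more, with 559 peaks in all. The longest runs had 7 peaks, and 6 runs reached that length, 3 on 2L, 2 on 3L and 1 on X. The tightest of these, on X from 8818769 to 8962488, spanned 144 kb, with scores of 9.98 to 59.15 and widths of 243 to 666 bp. The longest, on 2L from 3466055 to 4197891, spanned 732 kb with scores of 10.86 to 22.39. It began shortly after another run of 7 on 2L, from 3124148 to 3450777, in which scores ran from 9.98 to 64.18.

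The neighbours of isolated peaks were mixed. The nearest peak was itself isolated for 330 of the 902 (36.6%, 33.4 to 39.8), an interval that includes the 34.6% that isolated peaks made up among all groups. It lay in a group of 10 or more peaks for 105 (11.6%, 9.62 to 13.9), while such groups made up 14.4% of all groups. An isolated peak scored above its nearest peak in 486 cases (53.9%, 50.6 to 57.2) and was wider than it in 417 (46.2%, 42.9 to 49.5). Isolated peaks that are each other's nearest enter in both directions, which pulls these shares toward an even split. The intervals treat such linked cases as independent.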

How the data were processed

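Insv ChIP-seq peaks of Kc167 cells (3 ChIP and 3 input libraries) were analysed from 1 deposited list. The submitters' processing notes name BWA, MACS2, build BDGP5 and CASAVA in versions 1.7.0.2 and 1.7.0.3. Per the file headers, MACS called the peaks on FlyBase release 5. How duplicates and replicates were handled, and the peak threshold, were not given in the sources used here. The deposited score of each peak is the authors' value on an unstated scale. Scores of peak callers generally depend on depth, which is unknown here, and these were not transformed. Start and end are the other deposited values, 1-based, and are neither normalized nor pooled here.

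Isolation was worked out between facing edges, and width was end minus start plus 1. Like width means 10 classes of about equal size over main-arm widths. The span of an arm lies between its outermost peaks. Intervals at 95% are exact binomial (Clopper-Pearson) for shares and from order statistics for medians. No test was made. The members, the comparisons and the rule for named peaks (the 10 strongest, the strongest of each arm, the 5 most remote and the 5 widest) were chosen with earlier results of these data known. The alternatives were distances of 2 and 10 kb, midpoints, the strongest 50% of peaks, merging within 1 kb, the arms without their end peaks, 5 and 20 width classes and 500 kb bins. The rule was checked on simulated lists. Distances to genes, annotation, base composition and motifs were not analysed here, as they need a genome of release 5. The tools were pandas 2.3.3, numpy 2.4.6, matplotlib 3.10.9 and scipy 1.17.1 under Python 3.11.15.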

Additional observations from a re-analysis of the deposited data

Results flagged for a closer look

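Peaks off the main arms enter none of the comparisons, since the rule for isolation names only the main arms. There were 323 such peaks, with 8 on 3LHet, 9 on U, 300 on Uextra, 3 on 3RHet, 2 on 2RHet and 1 on YHet. The flag marks data left out and is not a result about isolated peaks.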

How the results depend on the processing

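The number of isolated peaks was 902, and it was 1802 with a distance of 2 kb, 528 with 10 kb and 1359 with peaks within 1 kb merged. It stayed within 1.5 times of 902 for midpoints, the strongest 50% of peaks and arms without their end peaks. The share wider than the others' median, 33.9%, was 38.0% at 2 kb and 29.5% after merging, and below the others' 50% under each of the 6 alternatives run. The share scoring above the others' median, 51.7%, reversed to 46.0% at 2 kb, 48.1% among the strongest 50% and 42.9% after merging. At like width the share of 62.3% was 53.7% at 2 kb, 66.9% at 10 kb and 57.2% among the strongest 50%, and above the others' share under each of the 8 alternatives. The share in the zone next to the centromere, 20.4% of isolated and 20.2% of other peaks, changed the sign of this small difference at 10 kb (19.5% against 20.2%), among the strongest 50% (21.16% against 21.18%), after merging (19.3% against 22.1%) and without the end peaks (20.4% against 20.9%), where the spans are shorter. The share in bins sparser than the median, 46.6% of isolated and 26.5% of other peaks, was 40.3% at 2 kb, 38.9% among the strongest 50% and 42.1% after merging, above the others' share each time. Peak density and isolation use the same positions, so the rule in part sets this direction. Merging and the strongest 50% change which peaks exist as well as which are isolated; the causes of these moves were not tested. No paired analysis was possible because the list does not separate the libraries. Which weak neighbours were called depends on a depth that is not known, and with it which peaks count as isolated.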
